A study of Rattus norvegicus with 6 samples.

Results

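The respiratory chain was examined through the genes of its subunits, encoded in the nucleus and in the mitochondrial genome, in healing Achilles tendon of rats. Members were the protein-coding records of the deposited expression table whose symbols follow the naming of the subunits of complexes I to V and of cytochrome c. They numbered 102 of 37991 records, with 89 in the nuclear genome and 13 in the mitochondrial genome. Complex I held 42 members, complex II 4, complex III 13, complex IV 23 and complex V 19, and cytochrome c was 1 member. Names in Uqcc, and the records Atp5s and Atp5sl, matched this naming although they belong to assembly or coupling factors and not to subunits.

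RNA-seq was performed on tendon of male Sprague-Dawley rats that underwent Achilles tenotomy at an age of 8 weeks. Inhalation of fine particulate matter, 3 times weekly over 6 weeks, defined the PM group (3 samples), and the animals of the non-PM group (3 samples) had the same tenotomy but did not inhale it. The tendon was healing in both groups, no uninjured tendon was sequenced in these samples, and the labels do not say which animal gave which sample, so p-values measure only the spread between these samples. The comparison addresses the effect of inhaled particulate matter on gene expression during tendon healing.

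Complexes I and II feed electrons from NADH and succinate into the chain, complex III passes them to cytochrome c, and complex IV passes them to oxygen. Complexes I, III and IV move protons across the inner mitochondrial membrane, and complex V, the ATP synthase, makes ATP as the protons return. Most subunits are encoded in the nucleus and imported, while a small set of hydrophobic subunits of complexes I, III, IV and V is encoded in mitochondrial DNA. Skeletal muscle is rich in mitochondria and uses its own isoforms of some complex IV subunits, whereas tendon fibroblasts hold few mitochondria.

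The libraries held between 46357986 and 62298837 counts, and they differed in their content of skeletal muscle RNA in a way that did not follow the groups. All 15 tendon markers had counts in every library, but their summed share of counts was 0.828% in non-PM replicate 3, against 4.99% to 9.004% in the other 5 libraries. The 38 skeletal muscle markers were likewise all detected in every library and made up 15.2% of counts in non-PM replicate 3, 11.1% in PM replicate 2 and 3.20% to 6.75% in the rest. The 13 slow or oxidative fibre markers took 2.05%, 3.00% and 1.501% of counts in PM replicates 1 to 3 and 3.05%, 1.47% and 6.59% in non-PM replicates 1 to 3. The 13 fast fibre markers took 0.339%, 2.72% and 1.99% in the PM group and 0.442%, 0.225% and 0.879% in the non-PM group. Non-PM replicate 3 thus stood apart by its slow fibre RNA and its low tendon share, and PM replicates 2 and 3 by their fast fibre RNA.

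The nuclear members took a small and the mitochondrial members a large part of each library. Nuclear members made up 0.969%, 1.37% and 0.836% of counts in PM replicates 1 to 3 and 1.17%, 0.858% and 2.03% in non-PM replicates 1 to 3, giving group means of 1.06% ± 0.280 and 1.352% ± 0.607 (SD, n = 3 each). Mitochondrial members made up 11.1%, 11.1% and 7.41% in the PM group and 10.5%, 6.92% and 13.5% in the non-PM group, with means of 9.87% ± 2.13 and 10.3% ± 3.29. Both ranges overlapped between the groups, and non-PM replicate 3 was highest and PM replicate 3 or non-PM replicate 2 lowest in each. The 95% Wilson interval of these shares was at most 0.0177 percentage points wide and covers counting error only. In bulk tissue, fewer cells of a type and less RNA per cell cannot be told apart.

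**Figure D1:**
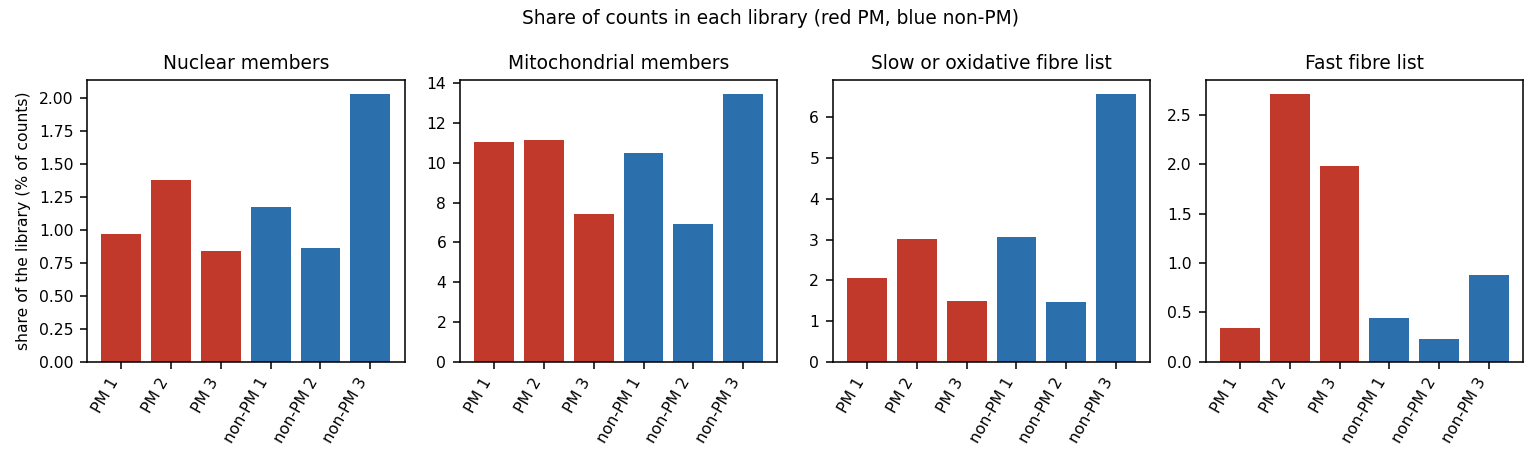
Share of all counts (vertical axes, percent of the library, each panel with its own scale from 0) taken by nuclear members, mitochondrial members, 13 slow or oxidative fibre markers and 13 fast fibre markers in each of 3 PM (red) and 3 non-PM (blue) libraries. The nuclear members and the slow fibre markers both reach their maximum in non-PM replicate 3, at 2.03% and 6.59%, while the fast fibre markers reach theirs in PM replicate 2, at 2.72%.

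No member of the chain passed the test between PM and non-PM tendons. Cox7b2 and Cox8c, isoforms known from testis, had 0 counts in every library. The other 100 members had enough counts to be tested in edgeR's quasi-likelihood test. None reached the criterion of the study (a fold change of 1.2 or more and p below 0.05 before adjustment), which 2.96% of the 18134 genes tested did, 1.47% as higher in PM and 1.49% as lower. With Benjamini-Hochberg adjustment over all genes in edgeR, no gene of the table passed 0.05 (8 did in DESeq2, none of them a member) and the members' adjusted p ranged from 0.942 to 0.997. None of the members had an unadjusted p under 0.05 in edgeR, DESeq2 or limma (2.96% of all genes tested did in edgeR), and their smallest unadjusted p in edgeR was 0.0876.

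The estimates nevertheless lay to one side for the nuclear members. The log2 fold change was below 0, that is lower in PM, for 84 of 87 nuclear members and for 9 of 13 mitochondrial members, against 50.5% of all genes tested. The median log2 fold change was -0.51 for nuclear members and -0.12 for mitochondrial members, beside -0.004 over all genes tested. By complex, the nuclear median was -0.48 in I, -0.44 in II, -0.50 in III, -0.52 in IV and -0.54 in V. Standard errors (SE) of single nuclear members had a median of 0.45, so that these estimates were about as large as their own error.

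These medians rested on non-PM replicate 3. Without that library the nuclear median was 0.04, with 53 of 87 members above 0, and the mitochondrial median was 0.20, with 13 of 13 above 0. The share of all genes above 0 in that comparison is not given here, so these counts stand without a background. No member passed the criterion in that comparison either, where the background was 1.48% higher and 2.94% lower. Without non-PM replicate 2, the library of the least slow fibre RNA, the nuclear median was -0.80 and 5 nuclear members passed as lower, where the background was 3.38% lower and 3.13% higher. These were Uqcrq, Atp5i, Ndufa11, Ndufa5 and Atp5e, at -1.11 to -0.92, named after their values were seen, and none passed adjustment over all genes in edgeR. Without PM replicate 2 the nuclear median was -0.79, and no member passed. Without non-PM replicate 1, Ndufa4l2 passed as the only member higher in PM, at 0.70, where the background was 1.4% higher and 1.85% lower, and the nuclear median was -0.66.

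**Figure D2:**
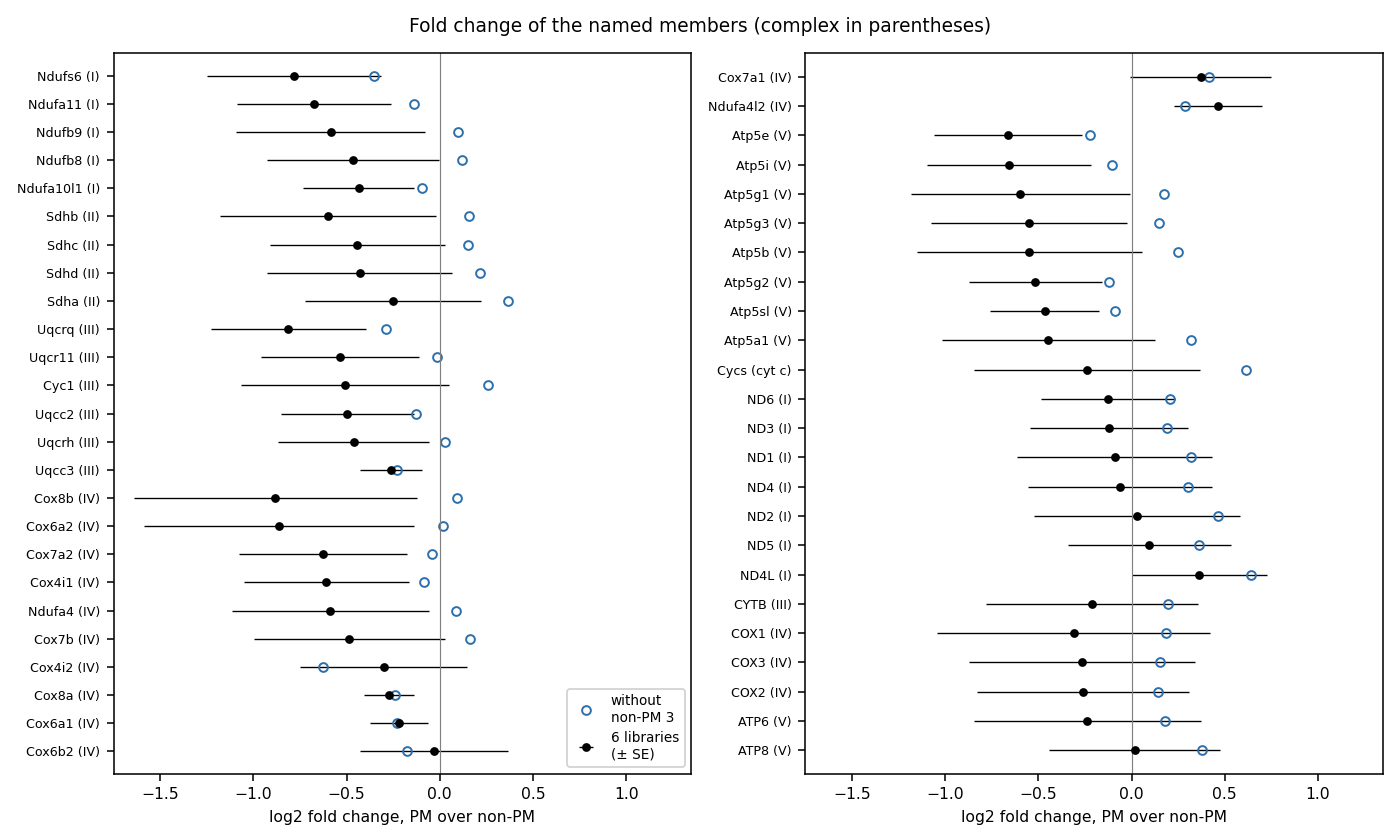
Log2 fold change of PM over non-PM (horizontal axes) for 49 of the 100 tested members, those picked by the rule for named genes, with the complex in parentheses. Black points with bars show the estimate ± SE from all 6 libraries and open circles the estimate without non-PM replicate 3. With 6 libraries 34 of the 36 nuclear members drawn lie below 0, and over all 87 tested nuclear members the median moves from -0.51 to 0.04 without non-PM replicate 3.

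Across the 6 libraries the nuclear members kept nearly one order. By FPKM, a level corrected for the length of the transcript and the size of the library, non-PM replicate 3 was the highest library for 78 of 87 nuclear members and PM replicate 2 the second highest for 71. PM replicate 3 was among the 2 lowest libraries for 81 members, and non-PM replicate 2 for 66. The highest library exceeded the lowest by a median of 2.51-fold over the nuclear members, with a range of 1.30-fold to 5.26-fold. This order is close to that of the slow fibre share. In that share PM replicate 2 and non-PM replicate 1 were nearly equal, as were PM replicate 3 and non-PM replicate 2. The part of slow fibre RNA in the members' levels was not tested.

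**Figure D3:**
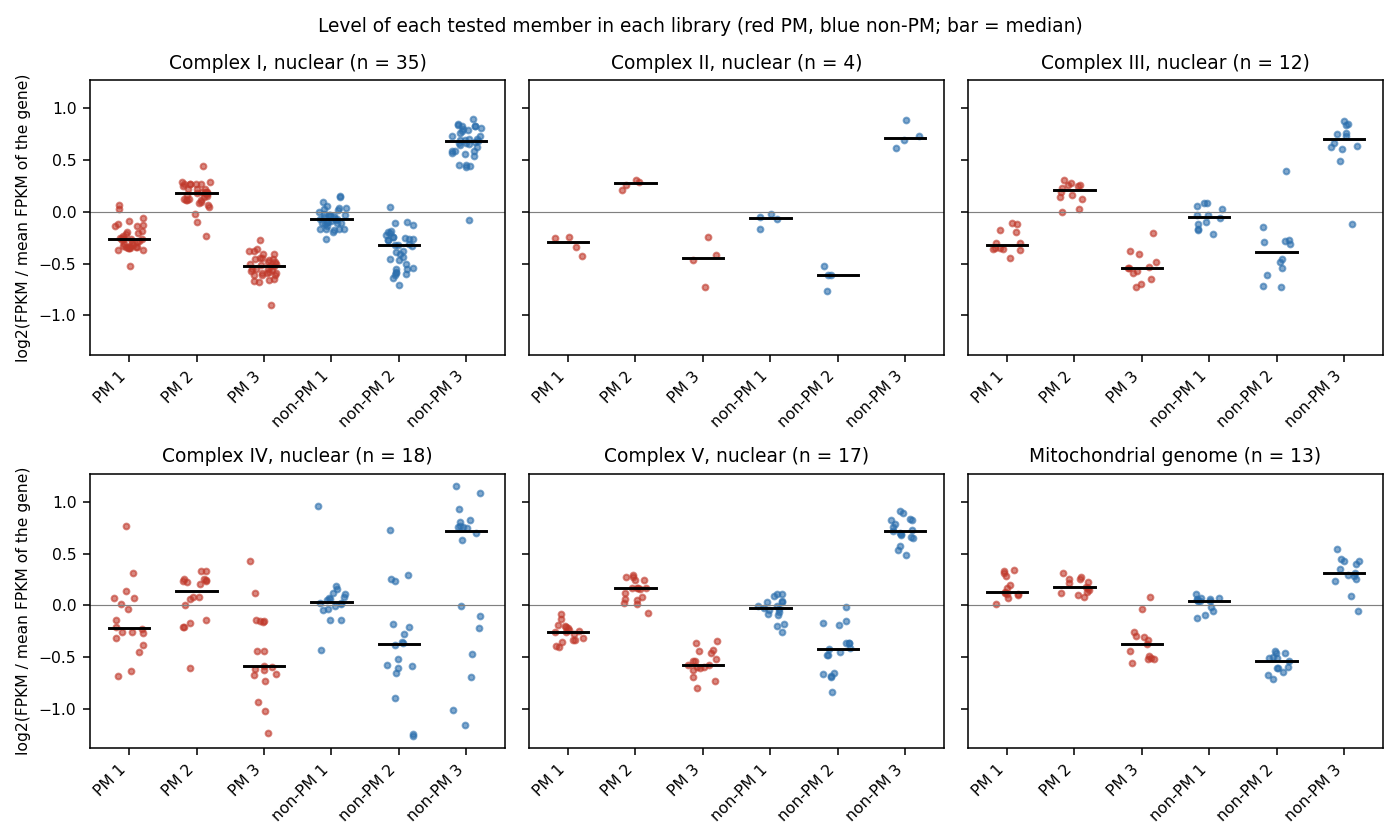
Log2 of FPKM over the mean FPKM of the same gene (vertical axis) for each tested nuclear member of complexes I to V and each mitochondrial gene, by library (PM in red, non-PM in blue), with black bars at the medians. In the nuclear panels the medians peak in non-PM replicate 3, at 0.68 to 0.72, and are lowest in PM replicate 3 or non-PM replicate 2. Members that are not highest in non-PM replicate 3 are Ndufs5 of complex I, Uqcc3 of complex III and 7 members of complex IV.

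The mixture of complexes hardly differed between libraries. Of the summed FPKM of nuclear members, complex I took 23.2% to 25.5% over the 6 libraries, complex II 3.21% to 3.85%, complex III 9.97% to 10.6%, complex IV 26.3% to 29.3% and complex V 32.7% to 33.6%. Complex II took 3.73% ± 0.177 in the PM group and 3.42% ± 0.197 in the non-PM group (SD, n = 3 each), and its groups overlapped, as did those of every other complex.

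Because the nuclear members moved together, the 250 bases before their start sites were searched on both strands for the letters bound by regulators of mitochondrial genes. Promoters from RefSeq on the GRCr8 build were matched for 75 nuclear members. The NRF1 letters, GCGCA and GCGC with any 1 base between them, were present before 11 of them (14.7%), beside 5.45% of 19005 protein-coding promoters. The GABPA letters CCGGAAGTG were present before 3 (Cox5b, Uqcrh and Uqcrq, 4%, beside 2.01%), the ERR letters TCAAGGTCA before Atp5g3 alone (1.33%, beside 0.305%) and the YY1 letters AAGATGGCG before Atp5j alone (1.33%, beside 0.784%). A match describes the letters and is not a measured binding site. The stretches below, 1 from each of complexes I, II, III and V with an NRF1 match and 1 from complex IV with a GABPA match, are given 5′ to 3′ on the strand of the gene with 1 match in capitals.
Ndufa11, complex I, chr9:1637497-1637546, plus strand: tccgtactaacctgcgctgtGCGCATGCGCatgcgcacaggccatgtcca
Sdha, complex II, chr1:30764487-30764536, plus strand: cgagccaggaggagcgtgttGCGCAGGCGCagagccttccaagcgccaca
Uqcrc1, complex III, chr8:118468139-118468188, plus strand: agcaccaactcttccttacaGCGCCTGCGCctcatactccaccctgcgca
Cox5b, complex IV, chr9:46417803-46417836, plus strand: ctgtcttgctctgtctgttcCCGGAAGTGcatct
Atp5g2, complex V, chr7:135678245-135678294, minus strand: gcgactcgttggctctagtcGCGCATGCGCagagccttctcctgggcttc
The matches in capitals started 97, 46, 64, 14 and 56 bases before the start site in Ndufa11, Sdha, Uqcrc1, Cox5b and Atp5g2. A second NRF1 match started 91 bases before the start site in Ndufa11, where it overlaps the first, and 89 bases before it in Sdha, outside the stretch shown.

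Complex I, the NADH dehydrogenase, had Ndufb9, Ndufa11 and Ndufb8, accessory subunits of its membrane arm, as its most abundant nuclear members. Ndufb9 stood at 159, 225 and 131 FPKM in PM replicates 1 to 3 and at 190, 137 and 354 FPKM in non-PM replicates 1 to 3. Ndufa11 stood at 150, 178 and 119 FPKM in the PM group and at 186, 150 and 301 FPKM in the non-PM group. In both genes non-PM replicate 3 was far above the other 5 libraries, among which PM and non-PM values were interleaved. The log2 fold changes were -0.59 ± 0.51 for Ndufb9, -0.67 ± 0.41 for Ndufa11 and -0.47 ± 0.46 for Ndufb8 (± SE, n = 3 each, adjusted p = 0.942 for each in edgeR).

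Over all 35 nuclear members of complex I the log2 fold change ranged from -0.78 to 0.10, and 34 lay below 0. The upper end was Ndufs5, a small subunit of the intermembrane space side and the only nuclear member of complex I not at its highest in non-PM replicate 3. Ndufs5 stood at 60.6, 80.8 and 49.2 FPKM in the PM group and at 65.9, 43.1 and 56.2 FPKM in the non-PM group, with PM replicate 2 highest and the groups overlapping. The lower end was the record Ndufs6 (identifier 29478), at 1.18 to 3.57 FPKM, which current RefSeq names call Ndufs6-ps1. The record now named Ndufs6 (LOC679739) stood at 64.3, 99.96 and 56.8 FPKM in the PM group and at 70.2, 56.4 and 131 FPKM in the non-PM group, with a log2 fold change of -0.39 ± 0.48. Reads of the gene and of the near-copy may have been divided between the records, so the value of the lower record is uncertain. Ndufa10l1, a second record beside the accessory subunit Ndufa10, was at 8.24 to 15.7 FPKM with a log2 fold change of -0.43 ± 0.30.

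Complex II, the succinate dehydrogenase, is also an enzyme of the citric acid cycle and has only nuclear subunits. Sdha, its flavoprotein, stood at 76.5, 113 and 77.1 FPKM in the PM group and at 81.3, 59.6 and 140 FPKM in the non-PM group. Sdhb, its iron-sulfur subunit, stood at 103, 168 and 83.3 FPKM in the PM group and at 135, 80.9 and 256 FPKM in the non-PM group. In each of the 4 genes non-PM replicate 3 was highest, PM replicate 2 second and non-PM replicate 2 lowest. The log2 fold changes were -0.25 ± 0.47 for Sdha and -0.60 ± 0.58 for Sdhb. The membrane anchors Sdhc and Sdhd gave -0.44 ± 0.47 and -0.43 ± 0.50, and without non-PM replicate 3 all 4 genes lay above 0, from 0.15 to 0.36.

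Complex III, the cytochrome bc1 complex, had the smallest unadjusted p among its members in Uqcrq, a small subunit of the membrane domain. Uqcrq stood at 106, 134 and 90.6 FPKM in the PM group and at 140, 108 and 228 FPKM in the non-PM group. Its groups overlapped, since PM replicate 2 lay above non-PM replicate 2, and the log2 fold change of Uqcrq was -0.81 ± 0.42 (unadjusted p = 0.0962, adjusted p = 0.942 in edgeR). Without non-PM replicate 3 it was -0.29. The hinge protein Uqcrh and the small subunit Uqcr11, with Cyc1, the cytochrome c1 subunit, were the most abundant nuclear members. They gave log2 fold changes of -0.46 ± 0.40 for Uqcrh, -0.53 ± 0.42 for Uqcr11 and -0.51 ± 0.56 for Cyc1.

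Among the assembly factors of complex III, Uqcc3 did not share the common order. Uqcc3 stood at 22.5, 24.9 and 21.1 FPKM in the PM group and at 23.3, 32.0 and 22.5 FPKM in the non-PM group, with non-PM replicate 2 highest. Its log2 fold change of -0.26 ± 0.17 was of like size without non-PM replicate 3, at -0.23. Uqcc2, another factor for cytochrome b assembly, gave -0.50 ± 0.36.

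Complex IV, the cytochrome c oxidase, held the members that departed most from the rest, and they were isoforms of the same subunits. Cox6a2 and Cox8b are the heart and skeletal muscle isoforms of subunits VIa and VIII, and Cox6a1 and Cox8a are the forms of other tissues. Cox6a2 stood at 424, 786 and 325 FPKM in the PM group and at 751, 275 and 1399.9 FPKM in the non-PM group, and it was the most abundant nuclear member of complex IV. Cox8b stood at 203, 411 and 139 FPKM in the PM group and at 341, 138 and 724 FPKM in the non-PM group. Both were highest in non-PM replicate 3 and lowest in non-PM replicate 2, and their groups overlapped.

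The other isoform of each pair was almost level. Cox6a1 stood at 173, 135 and 139 FPKM in the PM group and at 166, 191 and 135 FPKM in the non-PM group. Cox8a stood at 131, 117 and 117 FPKM in the PM group and at 141, 153 and 120 FPKM in the non-PM group. Non-PM replicate 2 was the highest library for both genes, and on the FPKM scale the groups overlapped. The ratio of Cox6a2 to Cox6a1 therefore ran from 1.44 in non-PM replicate 2 to 10.4 in non-PM replicate 3, a 7.22-fold range, and that of Cox8b to Cox8a from 0.901 to 6.01 in the same libraries, a 6.67-fold range.

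The fold changes of the paired isoforms differed in size and in error. The log2 fold change was -0.86 ± 0.72 for Cox6a2 and -0.88 ± 0.76 for Cox8b, and without non-PM replicate 3 these were 0.02 and 0.09. For Cox6a1 it was -0.22 ± 0.15 and for Cox8a -0.27 ± 0.13, the smallest unadjusted p of all members (0.0876, adjusted p = 0.942 in edgeR). These were the only nuclear members whose groups did not overlap in CPM, counts scaled by the library total and edgeR's TMM factors, 2.30% of 87 beside a background of 4.91% of all genes lower in PM and 4.77% higher. In that unit Cox8a was at 67.8, 66.8 and 62.1 CPM in the PM group and at 78.3, 75.0 and 83.9 CPM in the non-PM group. The 2 estimates hardly depended on the library that set the others, since without non-PM replicate 3 they were -0.23 and -0.24.

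**Figure D4:**
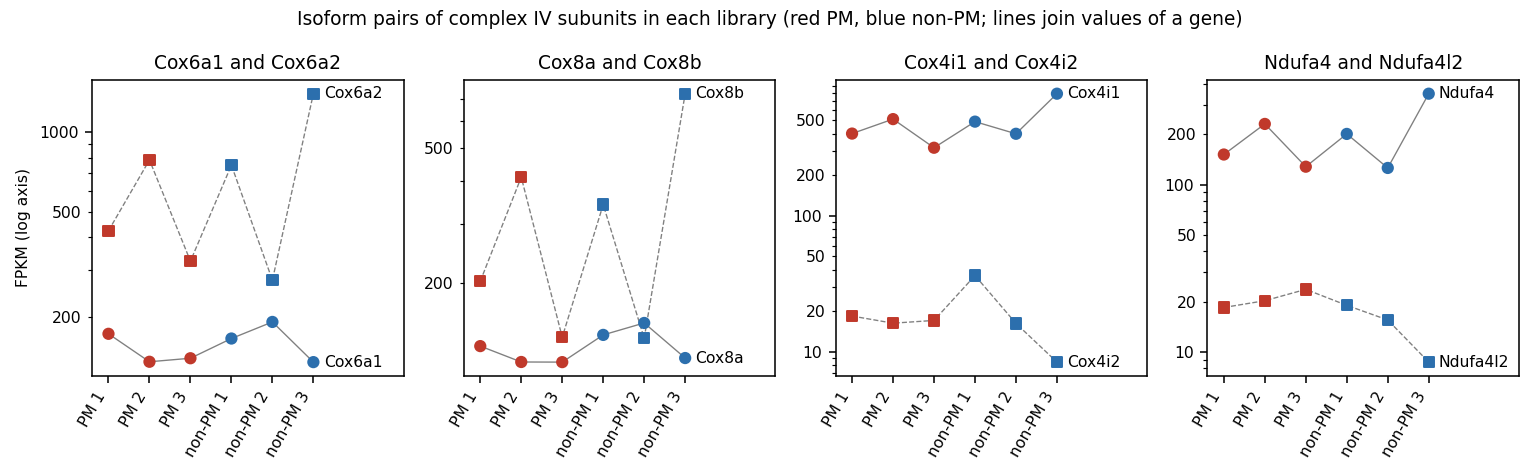
FPKM (log axes, a different range in each panel) of 4 isoform pairs of complex IV in each PM (red) and non-PM (blue) library, with circles and solid lines for the first-named isoform and squares and dashed lines for the second. Cox6a2 and Cox8b span 275 to 1399.9 and 138 to 724 FPKM, while Cox6a1 and Cox8a stay between 135 and 191 and between 117 and 153 FPKM. Cox4i2, Ndufa4l2 and, by a small margin, Cox6a1 are lowest in non-PM replicate 3.

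The isoforms linked to low oxygen ran against the common order, as some other complex IV isoforms did. Cox4i2, the isoform of subunit IV known from lung and hypoxic cells, stood at 18.2, 16.2 and 16.9 FPKM in the PM group and at 36.2, 16.1 and 8.36 FPKM in the non-PM group. Ndufa4l2, a hypoxia-induced relative of the complex IV subunit Ndufa4, stood at 18.5, 20.3 and 23.7 FPKM in the PM group and at 19.0, 15.6 and 8.72 FPKM in the non-PM group. Both were lowest in non-PM replicate 3, as were Cox6a1, Cox6b2 and the record Cox7a1, so this was not particular to them. Cox4i2 and Ndufa4l2 overlapped between the groups, for Ndufa4l2 only through PM replicate 1 and non-PM replicate 1. The log2 fold change was 0.47 ± 0.24 for Ndufa4l2, the highest of all members (unadjusted p = 0.0921, adjusted p = 0.942 in edgeR), and -0.30 ± 0.45 for Cox4i2. Leaving out single libraries gave 0.29 to 0.70 for Ndufa4l2 and -0.63 to 0.39 for Cox4i2, which turned positive without non-PM replicate 1.

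Their common counterparts were highest in non-PM replicate 3, like most nuclear members. Cox4i1 stood at 400.1, 511 and 315 FPKM in the PM group and at 489.8, 399 and 786 FPKM in the non-PM group, with a log2 fold change of -0.61 ± 0.44. Ndufa4 gave -0.59 ± 0.53. The ratio of Cox4i2 to Cox4i1 was lowest in non-PM replicate 3, at 0.0106, and 0.0316 to 0.0739 in the other libraries. That of Ndufa4l2 to Ndufa4 was 0.0249 in non-PM replicate 3 and 0.0879 to 0.185 in the others.

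Other complex IV pairs were limited by their records. Cox7a2, the common form of subunit VIIa, was at 139 to 373 FPKM with a log2 fold change of -0.62 ± 0.45. Its muscle form Cox7a1 (identifier 100910772) was at 0.527 to 1.24 FPKM, and a second record that carries the name Cox7a1 at present (LOC687508) was at 0.706 to 1.43 FPKM. Reads of the 2 records may have been divided or lost between near-identical copies, so no isoform ratio is read from them, and the log2 fold change of 0.37 ± 0.38 of the first record is uncertain. Cox6b2, a testis form, was at 1.57 to 4.20 FPKM with a log2 fold change of -0.03 ± 0.40. Cox7b, of which the counterpart Cox7b2 had no level to compare, was at 175 to 474 FPKM with a log2 fold change of -0.49 ± 0.51.

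Complex V held the most abundant nuclear member, Atp5b, the catalytic beta subunit of the ATP synthase. Atp5b stood at 573, 902 and 521 FPKM in the PM group and at 668, 480 and 1412 FPKM in the non-PM group. Non-PM replicate 3 was highest and PM replicate 2 second, the other 4 libraries lay between 480 and 668 FPKM, and the log2 fold change was -0.55 ± 0.60. Atp5a1, the alpha subunit, gave -0.45 ± 0.57, and Atp5e, the epsilon subunit of the central stalk, gave -0.67 ± 0.40, the lowest value of the complex. Atp5i, which takes part in joining ATP synthases into dimers, gave -0.66 ± 0.44. The record Atp5sl, now called Dmac2 and known as a complex I assembly factor, gave -0.47 ± 0.29.

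The genes Atp5g1, Atp5g2 and Atp5g3 encode the same subunit c, the rotor ring of complex V, and differ in the import sequence that is removed. Atp5g1 stood at 122 to 413 FPKM, Atp5g2 at 202 to 397 FPKM and Atp5g3 at 199 to 553 FPKM over the 6 libraries. The ratio of Atp5g1 to Atp5g3 was 0.678 ± 0.0741 in the PM group and 0.690 ± 0.0677 in the non-PM group, with a 1.24-fold range. The ratio of Atp5g2 to Atp5g3 was highest in non-PM replicate 2, at 1.21, and lowest in non-PM replicate 3, at 0.718. Log2 fold changes were -0.60 ± 0.59, -0.52 ± 0.36 and -0.55 ± 0.53 for Atp5g1, Atp5g2 and Atp5g3.

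Cytochrome c, the carrier between complexes III and IV, was measured as Cycs. Cycs stood at 130.3, 221 and 122 FPKM in the PM group and at 131, 79.6 and 278 FPKM in the non-PM group. Non-PM replicate 2 was lowest and non-PM replicate 3 highest, so that the non-PM values enclosed all PM values. The log2 fold change was -0.24 ± 0.61, and it was 0.61 without non-PM replicate 3.

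The 13 genes of the mitochondrial genome stood at higher FPKM than most nuclear members and varied less over the libraries. Mean FPKM over the 6 libraries was 284 to 17790 for them, with a median of 5771, and 0.731 to 759, with a median of 125, for the nuclear members. The highest library exceeded the lowest by 1.76-fold to 2.28-fold, with a median of 1.88-fold, below the nuclear median of 2.51-fold. The libraries were made by poly(A) selection, which captures mitochondrial transcripts with short tails to an unknown degree, so that the levels of the 2 genomes are given side by side and the difference between them was not tested.

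Their order over libraries was close to that of the nuclear members at the low end and less so at the high end. Non-PM replicate 2 was among the 2 lowest libraries for all 13 genes and PM replicate 3 for 12 of them. Non-PM replicate 3 was highest for 8, PM replicate 1 for 3 and PM replicate 2 for 2. In CPM no mitochondrial gene separated the groups.

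**Figure D5:**
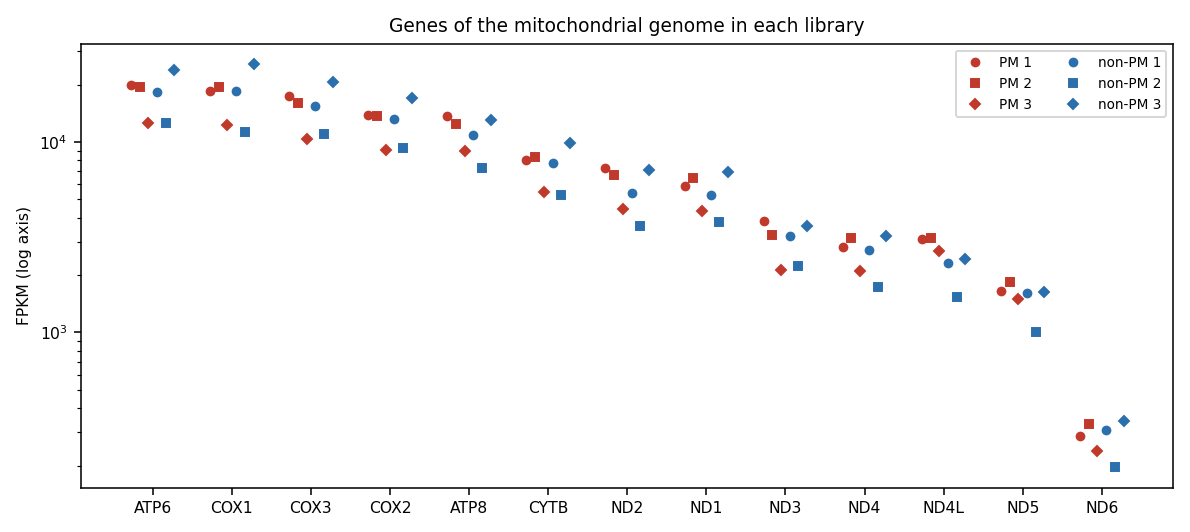
FPKM (log axis) of the 13 protein-coding genes of the mitochondrial genome, ordered by mean level, in 3 PM (red) and 3 non-PM (blue) libraries, with 1 symbol per library. PM and non-PM FPKM values overlap for every gene except ND4L, whose groups overlap in CPM. The share of all genes that separate on the FPKM scale is not given here. PM replicate 3 and non-PM replicate 2 lie at the low end for most genes.

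Of the mitochondrial subunits of complex IV, COX1, the catalytic subunit, stood at 18402, 19408 and 12221 FPKM in the PM group and at 18456, 11221 and 25622 FPKM in the non-PM group. It had the widest spread of the 13 genes, and its log2 fold change was -0.31 ± 0.73. COX2, which receives electrons from cytochrome c, and COX3 gave -0.26 ± 0.57 and -0.27 ± 0.61. CYTB, the mitochondrial subunit of complex III, stood at 8061, 8361 and 5485 FPKM in the PM group and at 7707, 5234 and 9853 FPKM in the non-PM group, with a log2 fold change of -0.21 ± 0.57.

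The mitochondrial subunits of complex I other than ND4L lay nearer to 0. ND1, ND2, ND3, ND4, ND5 and ND6, which form the proton-pumping membrane arm with ND4L, gave log2 fold changes from -0.13 to 0.09. ND4L stood at 3075, 3134 and 2664 FPKM in the PM group and at 2312, 1536 and 2425 FPKM in the non-PM group. On the FPKM scale all 3 PM values of ND4L lay above all 3 non-PM values, but they overlapped in CPM, and its log2 fold change of 0.36 ± 0.36 had an unadjusted p of 0.351 (adjusted p = 0.942 in edgeR). ND4L overlaps ND4 in mitochondrial DNA, as ATP8 overlaps ATP6, and ND6 is read from the other strand. The sources used here do not say how reads shared by such genes were counted, so their separate values are uncertain. ATP6, the subunit that carries the proton path of the ATP synthase, gave -0.24 ± 0.61, and ATP8 gave 0.02 ± 0.46.

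The direction of the mitochondrial median depended on scaling. It was -0.12 with TMM factors, 0.003 with library totals alone and 0.04 in limma on FPKM, where the nuclear median was -0.51, -0.36 and -0.28. The median over all genes tested was -0.004, 0.048 and 0.055 in these scalings, and no mitochondrial gene passed the criterion in any of them. By direct ratio, the summed FPKM of mitochondrial over nuclear members was 10.6, 7.53 and 8.44 in PM replicates 1 to 3 and 7.93, 7.28 and 6.00 in non-PM replicates 1 to 3. PM replicate 1 was highest and non-PM replicate 3 lowest, PM replicate 2 lay below non-PM replicate 1, and the means were 8.86 ± 1.58 and 7.07 ± 0.980 (SD, n = 3 each).

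Scores over muscle markers, each the mean log2 CPM of its markers, were entered into the test as a covariate in 2 ways, and the results differed. With a score over the 38 skeletal muscle markers, which hold no member, 34 of 87 nuclear members passed as lower in PM and none as higher, where the background was 5.54% lower and 7.09% higher. The nuclear median was -0.67 in that fit, the 34 members ranged from -0.91 to -0.52, and none passed adjustment over all genes in edgeR. With a score over the slow or oxidative fibre markers, chosen after seeing the data, the nuclear median was -0.03, Cycs passed as higher, ND4L passed as higher and Uqcrq passed as lower, where the background was 2.81% higher and 2.64% lower. The score over all muscle markers was highest in PM replicate 2 and the slow fibre score in non-PM replicate 3. The covariates thus give the 2 libraries a different place. The first score also did not rank all libraries as the share of counts of its markers did. It was 0.46 in PM replicate 3 and -0.50 in non-PM replicate 1, where that share was 6.39% and 6.75%. Because the slow fibre score was chosen after seeing the data, its fit cannot decide what part slow fibre RNA has. Whether either fit corrects for the amount of muscle RNA was not tested.

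Genes that act with the respiratory chain in mitochondria were described from lists of named genes. Of 43 assembly factors tested, 41 lay below 0 and none passed the criterion, with a median log2 fold change of -0.29. Acad9, which helps to build complex I, gave -0.95 ± 0.57, and Coa3, which acts in the translation and assembly of COX1, gave -0.48 ± 0.27. Of 18 citric acid cycle genes, 17 lay below 0 and none passed, with a median of -0.27. Citrate synthase, Cs, often used as a measure of mitochondrial content, stood at 67.6, 104 and 80.6 FPKM in the PM group and at 72.8, 61.3 and 122 FPKM in the non-PM group, giving -0.18 ± 0.43. Idh2 and Fh, the NADP-linked isocitrate dehydrogenase and fumarase, gave -0.78 ± 0.59 and -0.60 ± 0.52. All 25 genes of mitochondrial import and membranes lay below 0 and none passed, with a median of -0.34, Tomm22 at -0.27 ± 0.20 and Phb2 at -0.38 ± 0.27. Without non-PM replicate 3 these 3 medians were 0.03, 0.30 and 0.18.

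Among 26 genes of mitochondrial gene expression, 22 lay below 0 and 1 passed the criterion as lower, beside 1.49% of all genes tested. Elac2, which trims the ends of tRNAs out of mitochondrial transcripts, stood at 7.80, 9.20 and 7.78 FPKM in the PM group and at 10.3, 11.1 and 9.78 FPKM in the non-PM group. On the FPKM scale all 3 PM values lay below all 3 non-PM values. The share of all genes tested that separate in this way is given in CPM only, at 4.91% lower in PM. Elac2 had a log2 fold change of -0.43 ± 0.17 (unadjusted p = 0.0403, adjusted p = 0.942 in edgeR). It no longer passed without PM replicate 1, PM replicate 3, non-PM replicate 1 or non-PM replicate 3, where edgeR's unadjusted p was 0.0751 to 0.132. Tfam, which packages and transcribes mitochondrial DNA, gave -0.39 ± 0.30, and Polg2, an accessory subunit of the mitochondrial DNA polymerase, gave -0.28 ± 0.20.

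Among 19 regulators of mitochondrial biogenesis, 11 lay below 0, 8 above, and only Creb1 passed, as higher in PM (beside 1.47% of all genes tested). Creb1, a cAMP-responsive transcription factor that the study singled out from these samples, so that its direction here is no independent evidence, stood at 5.42, 3.97 and 5.73 FPKM in the PM group and at 3.53, 4.001 and 2.93 FPKM in the non-PM group. On the FPKM scale PM replicate 2 lay just below non-PM replicate 2. In CPM the groups did not overlap, which held as higher in PM for 4.77% of all genes tested. The gene had a log2 fold change of 0.46 ± 0.15 (unadjusted p = 0.0188, adjusted p = 0.942 in edgeR). It no longer passed without PM replicate 1, PM replicate 3 or non-PM replicate 1, where edgeR's unadjusted p was 0.0586 to 0.0716. Ppargc1a, the coactivator PGC-1alpha, stood at 2.28, 5.69 and 1.04 FPKM in the PM group and at 1.10, 1.12 and 3.53 FPKM in the non-PM group. PM replicate 2 was its highest library and non-PM replicate 3 its second highest, and it had a log2 fold change of 0.54 ± 0.83. Esrra, its partner receptor, gave -0.50 ± 0.53. Nrf1, whose letters were searched above, was nearly level at 5.59 to 6.67 FPKM, with -0.10 ± 0.14, and Gabpa gave 0.34 ± 0.15 (unadjusted p = 0.0615, adjusted p = 0.942 in edgeR).

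Cell type markers moved beside these values. Of the 13 fast fibre markers, 5 passed as higher in PM, where the background over all genes tested was 1.47% higher and 1.49% lower. Actn3 stood at 0.914, 393 and 320 FPKM in the PM group and at 0.791, 1.49 and 2.03 FPKM in the non-PM group. Thus 2 PM libraries set its estimate. Pvalb, the calcium buffer of fast fibres, had the same pattern, at 6.29, 553 and 552 FPKM in the PM group and 2.35 to 6.68 FPKM in the non-PM group. None of the 13 slow or oxidative fibre markers passed, with a median of -1.05 and with Tnni1 and Csrp3 at -1.21 ± 0.67 and -1.34 ± 0.73, and that median was -0.08 without non-PM replicate 3. Of other lists, 2 of 18 adipocyte markers (Lipe and Gpd1) and 3 of 15 endothelial markers (Calcrl, Tek and Cdh5) passed as higher, beside the same 1.47%. The summed adipocyte share was 0.145% to 0.417% in the PM group and 0.140% to 0.192% in the non-PM group, the endothelial share 0.157% to 0.258% and 0.120% to 0.171%, and the macrophage share 0.0703% to 0.120% and 0.0315% to 0.143%. None of 14 macrophage markers (median 0.23, Cd14 at 0.39 ± 0.29, Mrc1 at 0.62 ± 0.56), 9 erythroid markers (median -0.33, Epor at -0.67 ± 0.46, Slc4a1 at -2.01 ± 1.58) or 15 tendon markers (median 0.36, Mkx at 1.43 ± 0.66, Egr1 at 0.38 ± 0.29) passed. The tendon median is given with all 6 libraries only, and the summed tendon share was 0.828% in non-PM replicate 3. In the other libraries that share was 4.99% to 9.004%. The part of macrophage, adipocyte and endothelial RNA in the members' values was not tested.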

How the data were processed

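Poly(A) RNA from 3 PM and 3 non-PM tendons was sequenced as stranded read pairs. The submitters' processing notes name FastQC 0.11.7, Trimmomatic 0.38, HISAT2 2.1.0 and the Rnor_6.0 build, and the study names StringTie. The deposited table holds whole-number counts per gene, and the authors also computed FPKM. How strand, overlapping genes and multiply mapped reads were handled: not given in the sources used here.

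Of 37991 records, 12229 had no count and 18134 passed filterByExpr. Genes were tested two-sided in R 4.3.3 with edgeR 4.0.16 (TMM factors, quasi-likelihood test, group as the only term) and Benjamini-Hochberg adjustment. The SE was obtained by dividing the size of the log2 fold change by the root of F. The criterion of the study was p below 0.05 before adjustment and a change of 1.2-fold or more. DESeq2 1.42.0 and limma 3.58.1 on log2(FPKM + 1) were alternatives, and the scripts were tested on simulated data. Library pairs differed by a chi-square per degree of freedom of at least 176. Same-numbered samples deviated with correlations of -0.17, -0.39 and -0.31 in replicates 1 to 3. These gave no sign that the numbers pair the samples. With 3 libraries a group they cannot exclude a pairing, which the labels do not state.

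The members and lists were chosen with earlier results of these data known. Named genes were all mitochondrial genes, Sdh genes, Cycs and isoform pairs. In complexes I, III, IV and V, the 3 most abundant nuclear members, the 3 members of smallest p and both extremes of fold change were added. Of each list, the 2 genes of smallest p were named, with Ppargc1a, Esrra, Nrf1, Gabpa, Tfam, Creb1 and Cs. Genes named beyond this rule, such as Ndufs5, Cox8c and Cdh5, were chosen after their values were seen. The symbols Sco2, Pet117 and Fastkd4 were not matched. Of matching symbols, 11 were not protein-coding and were left out. Other members are given only in counts, ranges and medians.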

Additional observations from a re-analysis of the deposited data

How the results depend on the processing

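The absence of members past the criterion held under each alternative except the score fits and 2 left-out libraries given here. Without TMM factors 142 genes were higher and 152 lower, and with DESeq2 487 were lower and 8 passed adjustment. In limma 176 were higher and 117 lower on log2(FPKM + 1), 126 lower on log2(FPKM + 0.1) and 117 lower without a filter. With the replicate number as a block, 76 were higher and 79 lower, no member passed, and the nuclear median was -0.38. With the skeletal muscle score 1285 genes were higher and 1004 lower, with 34 nuclear members lower. With the slow or oxidative fibre score, chosen after seeing the data, 509 were higher and 478 lower, with 1 nuclear member higher, 1 lower and 1 mitochondrial member higher. Leaving out single libraries gave 110 to 582 genes higher, 96 to 627 lower, 0 to 1 nuclear members higher and 0 to 5 lower. As shares of summed FPKM, nuclear members took 2.37% in PM and 2.89% in non-PM, and mitochondrial members 20.7% and 19.9%. Ratios of counts in place of FPKM moved no isoform comparison beyond the spread.

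Directions turned as follows, in log2 fold change, for genes that had not passed. With DESeq2 it was -0.0058 for ATP8, and with DESeq2 size factors in edgeR -0.013 for ATP8 and -0.00052 for ND2. With library totals alone it was 0.042 for ND1, 0.0028 for ND3 and 0.066 for ND4. In limma on log2(FPKM + 1), with or without a filter, it was 0.036 for Cox6b2, 0.020 for Cs, 0.092 for Cycs, 0.081 for ND1, 0.0087 for ND3, 0.11 for ND4, 0.042 for ND6 and 0.028 for Nrf1, and on log2(FPKM + 0.1) 0.010 for Cox4i2, 0.067 for Cox6b2, 0.020 for Cs, 0.093 for Cycs, 0.081 for ND1, 0.0087 for ND3, 0.11 for ND4, 0.042 for ND6 and 0.032 for Nrf1. With the replicate block it was 0.0064 for Cox6b2, 0.016 for ND4 and 0.19 for Slc4a1, and with the skeletal muscle score -0.059 for ATP8, 0.19 for Cox6b2, -0.040 for ND2 and -0.037 for ND5. With the slow or oxidative fibre score it was 0.23 for Atp5a1, 0.14 for Atp5b, 0.14 for Atp5g1, 0.10 for Atp5g3, 0.20 for ATP6, 0.22 for COX1, 0.16 for COX2, 0.16 for COX3, 0.12 for Cox6a2, 0.12 for Cox7b, 0.12 for Cox8b, 0.28 for Cs, 0.19 for Cyc1, 0.55 for Cycs, 0.22 for CYTB, 0.15 for Esrra, 0.066 for Fh, 0.32 for ND1, 0.23 for ND3, 0.35 for ND4, 0.26 for ND6, 0.059 for Ndufa4, 0.034 for Ndufb8, 0.024 for Ndufb9, 0.30 for Sdha, 0.12 for Sdhb, 0.11 for Sdhc and 0.17 for Sdhd. Under leave-one-out the log2 fold change ranged as follows: Atp5a1 -0.79 to 0.32, Atp5b -0.90 to 0.25, Atp5g1 -0.98 to 0.18, Atp5g3 -0.90 to 0.15, ATP6 -0.52 to 0.18, ATP8 -0.26 to 0.38, COX1 -0.64 to 0.19, COX2 -0.54 to 0.14, COX3 -0.54 to 0.15, Cox4i2 -0.63 to 0.39, Cox6a2 -1.37 to 0.017, Cox6b2 -0.21 to 0.33, Cox7b -0.82 to 0.16, Cox8b -1.50 to 0.094, Cs -0.45 to 0.36, Cyc1 -0.87 to 0.26, Cycs -0.63 to 0.61, CYTB -0.49 to 0.20, Esrra -0.86 to 0.24, Fh -0.95 to 0.16, Idh2 -1.15 to 0.0016, Mrc1 -0.049 to 1.14, ND1 -0.36 to 0.32, ND2 -0.26 to 0.47, ND3 -0.38 to 0.19, ND4 -0.35 to 0.31, ND5 -0.17 to 0.36, ND6 -0.41 to 0.20, Ndufa4 -0.94 to 0.087, Ndufb8 -0.79 to 0.12, Ndufb9 -0.92 to 0.099, Ppargc1a -0.36 to 1.70, Sdha -0.56 to 0.36, Sdhb -1.001 to 0.16, Sdhc -0.76 to 0.15, Sdhd -0.76 to 0.22, Slc4a1 -3.38 to 1.77 and Uqcrh -0.72 to 0.028. These lists hold the genes named by the rule. Genes named beyond it turned too under leave-one-out, among them Ndufs5 (-0.16 to 0.27), the record LOC679739 (-0.73 to 0.26) and Ndufab1 (-0.96 to 0.14). With the skeletal muscle score Ndufs5 was at -0.063. The cause of the turned directions was not tested.

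The estimates carry the spread between 3 libraries a group, in which muscle RNA differed. Whether depth also limits them was not tested. The lowest count of any member named with a fold change was 26, in the record Ndufs6. Counts reached down to 43 in the record Cox7a1 and 51 in Cox6b2, and members named from abundance had far more. Poly(A) selection and the division of reads between near-identical or overlapping genes also limit what the values of mitochondrial genes and of Ndufs6 and Cox7a1 can show.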

Other observations

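Several records lay outside the naming rule but hold respiratory chain genes under their present names. Atpif1, now Atp5if1, encodes the inhibitor of ATP synthase and was the only one of them to pass the criterion (lower, beside 1.49% of all genes tested). It stood at 87.5, 74.0 and 60.2 FPKM in PM replicates 1 to 3 and at 97.4, 101 and 86.6 FPKM in non-PM replicates 1 to 3, and PM replicate 1 exceeded non-PM replicate 3. In CPM the groups did not overlap, which held as lower in PM for 4.91% of all genes tested. The log2 fold change was -0.46 ± 0.18 (unadjusted p = 0.0384, adjusted p = 0.942 in edgeR). Without non-PM replicate 3 it was -0.39 with an unadjusted p of 0.0721 in edgeR, and over all single libraries left out it ran from -0.56 to -0.32. The gene was chosen after its values were seen.

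Most of the other such records were highest in non-PM replicate 3. Cox6b1 (LOC688869) was at 158 to 391 FPKM with a log2 fold change of -0.57 ± 0.43, Ndufa13 (LOC100911483) at 121 to 261 FPKM with -0.52 ± 0.40, and Ndufab1, the mitochondrial acyl carrier protein within complex I, at 76.3 to 239 FPKM with -0.59 ± 0.56. Atp5mk (Usmg5), Atp5mpl (LOC100912557), Ndufb1, Uqcc4 (RGD1565784) and the record now named Ndufs6 (LOC679739) were likewise highest in non-PM replicate 3, with -0.64 to -0.28. The remaining records were highest in other libraries, with -0.01 ± 0.23 for Uqcc5 (Smim4), -0.32 ± 0.25 for Uqcc6 (LOC691921), 0.03 ± 0.35 for the second Cox7a1 record (LOC687508) and 0.20 ± 0.97 for Ndufb11b (RGD1306782), the last at no more than 0.396 FPKM.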
